A study of Mus musculus with 20 samples.

Results

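Fv1, Apobec3, Trim5 and Trim34a are mouse genes of the retrovirus restriction system, or close relatives of such genes, and their transcripts were followed on 20 Affymetrix Mouse 430 v2 arrays of pre-B cells, the B cell precursors that rearrange immunoglobulin light chain genes. The members were chosen by gene symbol, with earlier results of these data known: the values of the line groups against the RAG-2-deficient lines are counted as the values that selected them, and those contrasts are given as a description with no test. All probe sets annotated to exactly 1 of the 4 genes were taken, which gave 5 probe sets of 44200 in the table and 4 genes of 17944 named by at least 1 probe set. Fv1, Apobec3 and Trim5 had 1 probe set each and Trim34a had 2. A further 2 probe sets named Trim34a together with its neighbour Trim34b and were left out of the counts.

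Restriction factors are proteins that block a retrovirus inside the cell it has entered. Fv1, itself derived from the gag gene of an ancient endogenous retrovirus, binds the incoming capsid of murine leukaemia virus and stops the infection before the provirus is integrated, and its alleles differ between inbred mouse strains in the viruses they block. Apobec3 is a cytidine deaminase that is packaged into virions and interferes with reverse transcription in the next cell. Trim5 belongs to the tripartite motif (TRIM) ubiquitin ligases; human TRIM5 recognises retroviral capsid lattices, and the mouse carries a cluster of related genes, among them Trim34a, Trim12a, Trim12c, Trim30a and Trim30d, on chromosome 7. Many of these genes are known to respond to interferon. The cells matter here because v-abl is the oncogene of Abelson murine leukaemia virus, a retrovirus that is commonly used to transform mouse pre-B cells.

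The cell lines were mouse pre-B cells transformed by v-abl, all kept for 48 hours in 3 uM STI571 (imatinib), an inhibitor of the v-abl kinase. Cells arrested by this drug switch on the RAG recombinase and so break their own antigen receptor loci. Artemis- and ATM-deficient lines (n = 2, each on 2 technical arrays) lack both Artemis, the endonuclease needed to open hairpin-sealed RAG breaks, and the break-signalling kinase ATM. IkB-DN lines (n = 3) lack Artemis and carry a dominant negative IkB, an inhibitor of NF-kB. Artemis-deficient lines (n = 3) lack Artemis alone. In wild type lines (n = 3) breaks are made and joined. In RAG-2-deficient lines (n = 3), the control, no RAG breaks are made. Bone marrow pre-B cells came from Artemis-deficient mice (n = 2) and RAG-1-deficient mice (n = 2), both with an immunoglobulin heavy chain transgene (IgH). The labels give no mouse strain, age or sex and no promoter for IkB-DN, and they leave it unclear whether the 3 IkB-DN samples were derived independently. The title of wild type replicate 3 contains the letters ATM and those of the RAG-2-deficient lines the letters Bcl. That of Artemis-deficient replicate 3, unlike those of the other Artemis-deficient lines, contains the letters INV. Those of the Artemis- and ATM-deficient lines contain the letters CJ. The labels leave all of these letters unexplained.

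Array medians ran from a signal of 26.84 to 27.67 for the lines, and from 46.85 to 47.82 for the marrow. The lines carried B lineage transcripts: all 9 markers measured were at or above the array median on every array, while the summed signal of the markers of T and NK cells reached at most 25.58 and that of dendritic cell markers at most 46.84. Neutrophil and monocyte markers summed to 222.0 to 1165 in Artemis- and ATM-deficient, 636.9 to 770.2 in IkB-DN, 138.5 to 352.8 in Artemis-deficient, 125.8 to 361.7 in wild type and 104.3 to 169.9 in RAG-2-deficient lines. The marrow samples held more than pre-B cell RNA, with summed signals of 8 neutrophil and monocyte markers of 45670 to 52100 in Artemis-deficient marrow and 27520 to 39540 in RAG-1-deficient marrow. Atm was read by 2 probe sets, both lowest in the Artemis- and ATM-deficient lines: 1421205_at read 29.67 to 49.64 there and 79.65 to 116.1 in Artemis-deficient lines (difference -1.30 ± 0.15, adjusted p = 0.00315), and 1428830_at 101.1 to 113.7 there and 122.2 to 173.2 in Artemis-deficient lines (-0.48 ± 0.17, adjusted p = 0.338). Rag1 transcript was present in RAG-1-deficient marrow (5356 to 6677), and Rag2 transcript was at 19.77, 254.6 and 326.9 in the RAG-2-deficient lines, in order of level, and 173.0 to 305.5 in wild type lines, so neither probe set checks its label. Xist, the transcript of the silenced X chromosome, was at 2292 or more in all Artemis- and ATM-deficient and wild type lines and in 1 Artemis-deficient line, and at 17.59 or less in the remaining lines. Across probe sets the IkB-DN samples correlated with each other at 0.977 to 0.984, with Artemis-deficient replicate 3 at 0.944 to 0.949 and with the other Artemis-deficient lines at 0.904 to 0.929.

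To compare the members around their start sites, promoter windows of RefSeq (build GRCm38.p6, 250 bases before to 50 bases after the start) were searched on both strands. The search was for the core of the interferon-stimulated response element, which is GAAA, any 2 bases, then GAAA again. A window with the motif was found for 3 of 5 member windows, and for 1131 of 32851 windows of the same length in the whole table (3.443%). Relative to the start site the matches begin at 10 for Trim34a, -49 for Trim5 and -140 for Apobec3, so the Trim34a match lies past the start. The 3 windows are shown 5′ to 3′ along the gene, with the match in capitals; all 3 matches lie on the opposite strand and so read as the reverse complement. The Trim34a window is chr7:104244207-104244506 on the plus strand with its match starting at position 261, the Trim5 window is chr7:104288057-104288356 on the minus strand with its match at position 202, and the Apobec3 window is chr15:79892158-79892457 on the plus strand with its match at position 111.
Trim34a: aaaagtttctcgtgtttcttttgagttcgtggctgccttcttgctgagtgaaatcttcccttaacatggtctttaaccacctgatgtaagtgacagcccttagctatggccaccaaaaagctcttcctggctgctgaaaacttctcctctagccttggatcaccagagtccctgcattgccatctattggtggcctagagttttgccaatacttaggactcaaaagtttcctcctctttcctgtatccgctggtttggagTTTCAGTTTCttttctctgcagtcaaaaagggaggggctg
Trim5: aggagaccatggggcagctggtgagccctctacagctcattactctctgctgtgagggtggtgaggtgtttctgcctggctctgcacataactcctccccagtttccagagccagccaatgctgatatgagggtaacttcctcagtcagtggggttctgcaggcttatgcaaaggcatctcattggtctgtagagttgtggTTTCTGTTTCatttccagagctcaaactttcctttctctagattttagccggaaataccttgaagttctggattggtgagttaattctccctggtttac
Apobec3: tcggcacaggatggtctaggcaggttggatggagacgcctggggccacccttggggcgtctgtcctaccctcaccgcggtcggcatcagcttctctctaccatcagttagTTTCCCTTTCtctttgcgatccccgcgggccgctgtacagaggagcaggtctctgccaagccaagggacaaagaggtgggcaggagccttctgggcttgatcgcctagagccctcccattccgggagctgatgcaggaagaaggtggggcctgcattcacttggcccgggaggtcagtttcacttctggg
These letters were absent from the Fv1 window (chr4:147868729-147869028) and from a second Apobec3 window (chr15:79894773-79895072). The Trim5 window shared a run of 241 bases with that of its neighbour Trim12a, a measure of how alike the genes of this cluster are. Probe sets designed for one gene of the cluster may bind transcripts of another, which was not tested.

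Fv1 (probe set 1422279_at), the capsid-binding factor, was low in the RAG-2-deficient lines and higher in every other line that had a value. The Artemis- and ATM-deficient arrays read a signal of 31.6 and 41.1 for the first line and 34.2 and 28.0 for the second, and the IkB-DN lines read 35.7, 25.9 and 30.3. Artemis-deficient replicates 2 and 3 read 69.3 and 42.1, with an empty cell for replicate 1. The wild type lines read 40.4, 23.3 and 26.1, and the RAG-2-deficient lines 2.5, 6.1 and 7.4. Among lines with a value, the lowest of the others was above the highest RAG-2-deficient line. These are values that selected the members, so nothing is read from it. The share of all probe sets on which the RAG-2-deficient lines stand apart was not counted, here or for the members below. These are dim signals: the array median was reached by 4 of 4 Artemis- and ATM-deficient, 2 of 3 IkB-DN, 2 of 3 Artemis-deficient and 1 of 3 wild type arrays, and by 0 of 3 RAG-2-deficient arrays.

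In order of mean level on the log2(signal + 6) scale, Fv1 stood at 5.91 ± 0.46 (SD, n = 2) in Artemis-deficient lines, 5.30 ± 0.13 (n = 2) in Artemis- and ATM-deficient lines, 5.19 ± 0.20 (n = 3) in IkB-DN lines, 5.14 ± 0.35 (n = 3) in wild type lines and 3.48 ± 0.34 (n = 3) in RAG-2-deficient lines. The means of the Artemis- and ATM-deficient, IkB-DN and wild type lines were closer to each other than the SD of the wild type lines. The difference from the RAG-2-deficient lines was 2.43 ± 0.31 (SE) for Artemis-deficient, 1.66 ± 0.27 for wild type, 1.82 ± 0.31 for Artemis- and ATM-deficient and 1.71 ± 0.27 for IkB-DN lines. The Artemis-deficient value leaves out replicate 1, and with its empty cell set to a signal of 0 the difference was 1.32. These 4 contrasts share the RAG-2-deficient lines.

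Among the break-competent lines, the Fv1 differences that could be tested did not pass. Artemis-deficient against wild type lines gave 0.77 ± 0.31 (limma, adjusted p = 0.332), Artemis- and ATM-deficient against Artemis-deficient lines -0.61 ± 0.34 (adjusted p = 0.614) and IkB-DN against Artemis-deficient lines -0.72 ± 0.31 (adjusted p = 0.232), each with 2 Artemis-deficient lines. All 3 turned sign with the empty cell at a signal of 0. In the marrow, Fv1 signals were 31.5 and 29.9 in Artemis-deficient mice, against 14.5 and 8.7 in RAG-1-deficient mice. The groups did not overlap, but the share of all probe sets that separate in this way was not counted. All 4 values were below their array medians and the probe set did not pass the filter on low values. Without the filter the difference was 0.90 ± 0.36 (limma, n = 2 and 2, adjusted p = 0.343).

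**Figure D1:**
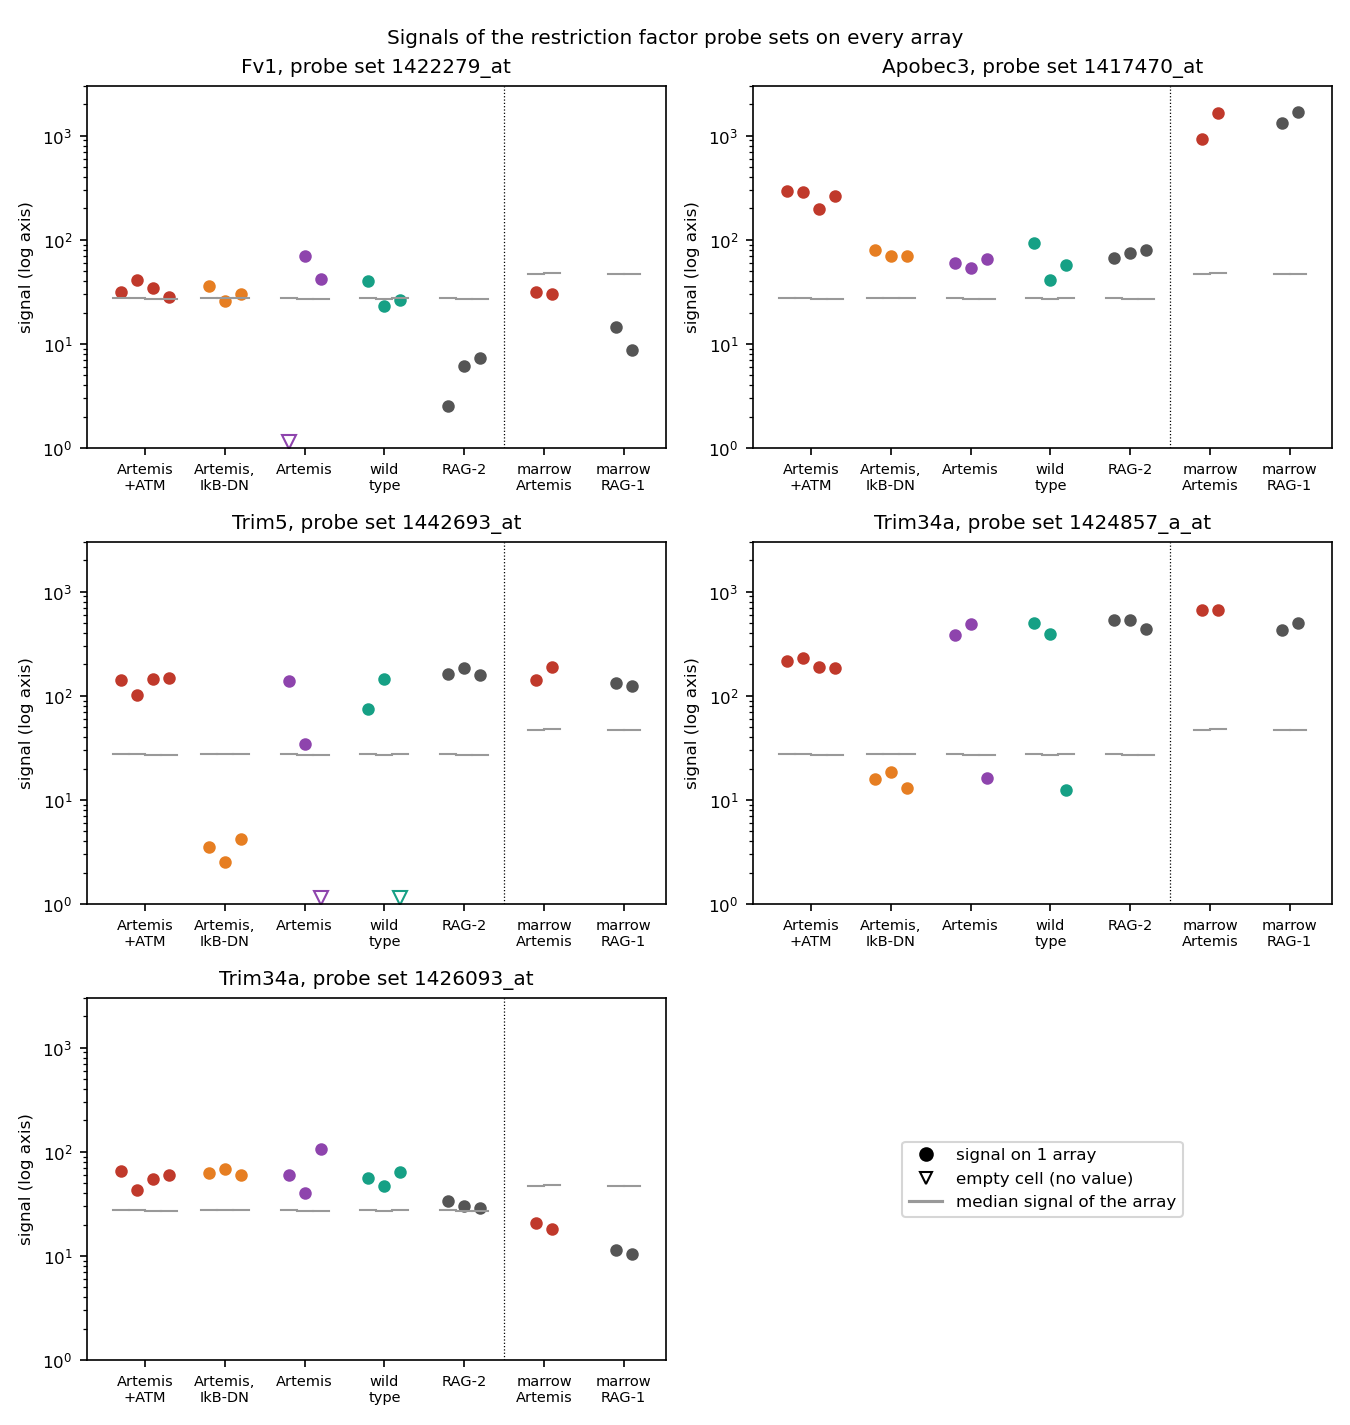
Signal of the 5 member probe sets on each of 20 arrays (log axis), by group; the Artemis and ATM group shows 2 lines with 2 arrays each, triangles mark empty cells and grey bars the median signal of the array. Fv1 is below 8 in the 3 RAG-2-deficient lines and at 23.3 or more in the other lines with a value, Apobec3 is at 197.7 or more in the Artemis- and ATM-deficient lines, and Trim34a 1424857_a_at is below 20 in 5 line samples.

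Apobec3 (probe set 1417470_at), the packaged deaminase, was higher in the Artemis- and ATM-deficient lines than in every other line. The arrays of the first such line read 295.4 and 285.4 and those of the second 197.7 and 263.9. The IkB-DN lines read 79.1, 69.7 and 69.6, the Artemis-deficient lines 60.4, 53.8 and 64.7, the wild type lines 93.2, 41.1 and 57.9, and the RAG-2-deficient lines 67.4, 75.3 and 79.4. The lowest array of these 2 lines, each on 2 technical arrays, was above the highest array of any other line. The share of all probe sets that separate in this way was not counted. The values outside that group ran from 41.1 to 93.2, and their groups overlapped.

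Artemis- and ATM-deficient lines were set against Artemis-deficient lines. There Apobec3 was 2.01 ± 0.25 higher (SE, log2 scale, n = 2 and 3, limma, adjusted p = 0.00409), a 4.0-fold difference. It was the single member probe set called among 5 tested, when 0.284% of all probe sets were called. It was called under every alternative run for this comparison, with differences of 1.75 to 2.18, and without either Artemis- and ATM-deficient line it was 1.84 and 2.18. Against the RAG-2-deficient lines the same lines differed by 1.72 ± 0.25. In Artemis-deficient against wild type and IkB-DN against Artemis-deficient lines Apobec3 differed by -0.03 and 0.27, neither called. Against the RAG-2-deficient lines the other groups differed by -0.29 to -0.02.

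Markers of neutrophils and monocytes were uneven in the Artemis- and ATM-deficient against Artemis-deficient comparison. Of 8 such markers 4 were tested and 0 called, with 1 at an unadjusted p below 0.05: Itgam, an integrin of myeloid cells, read 124.3 to 1069 in the Artemis- and ATM-deficient and 48.68 to 224.9 in the Artemis-deficient lines (1.85 ± 0.85, adjusted p = 0.51). In the Artemis- and ATM-deficient lines 2 of the 8 markers were at or above the array median on every array. Csf1r stood at a mean of 6.31 there and 6.25 in the Artemis-deficient lines on the log2(signal + 6) scale (0.07 ± 0.35, not called). Lyz2 reached at most 13.56 in the Artemis- and ATM-deficient lines, Mpo 5.786 and S100a8 2.954, all below the array median. Cd14 was empty on all 4 arrays. The part of these markers in the Apobec3 difference was not tested.

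In the marrow Apobec3 read 921.7 and 1664 in Artemis-deficient mice, against 1322 and 1696 in RAG-1-deficient mice. The groups overlapped and the difference was -0.27 ± 0.28 (n = 2 and 2, adjusted p = 0.689). Levels in the lines and in the marrow come from separate fits and differ in cell content as well. In bulk samples such as these, fewer cells of a type and less RNA per cell cannot be told apart.

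The next gene after Apobec3 on chromosome 15 in the RefSeq order, Cbx7, a Polycomb subunit that reads methylated histone H3, read 94.67 to 135.6 on the Artemis- and ATM-deficient arrays and 44.38 to 64.23 in the Artemis-deficient lines. Its difference was 0.96 ± 0.33 (adjusted p = 0.34), and wild type replicate 3 reached 97.49. Of the named genes with a tested probe set, the 5 whose level ran most like Apobec3 over the line samples were Kitl (r = 0.894, n = 13), which encodes the ligand of the Kit receptor, Shox2 (r = 0.859, n = 12), Mppe1 (r = 0.843, n = 14), C230072F16Rik (r = 0.802, n = 14) and Tgfb1 (r = 0.80, n = 14). The points of these correlations share lines, culture and arrays.

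**Figure D2:**
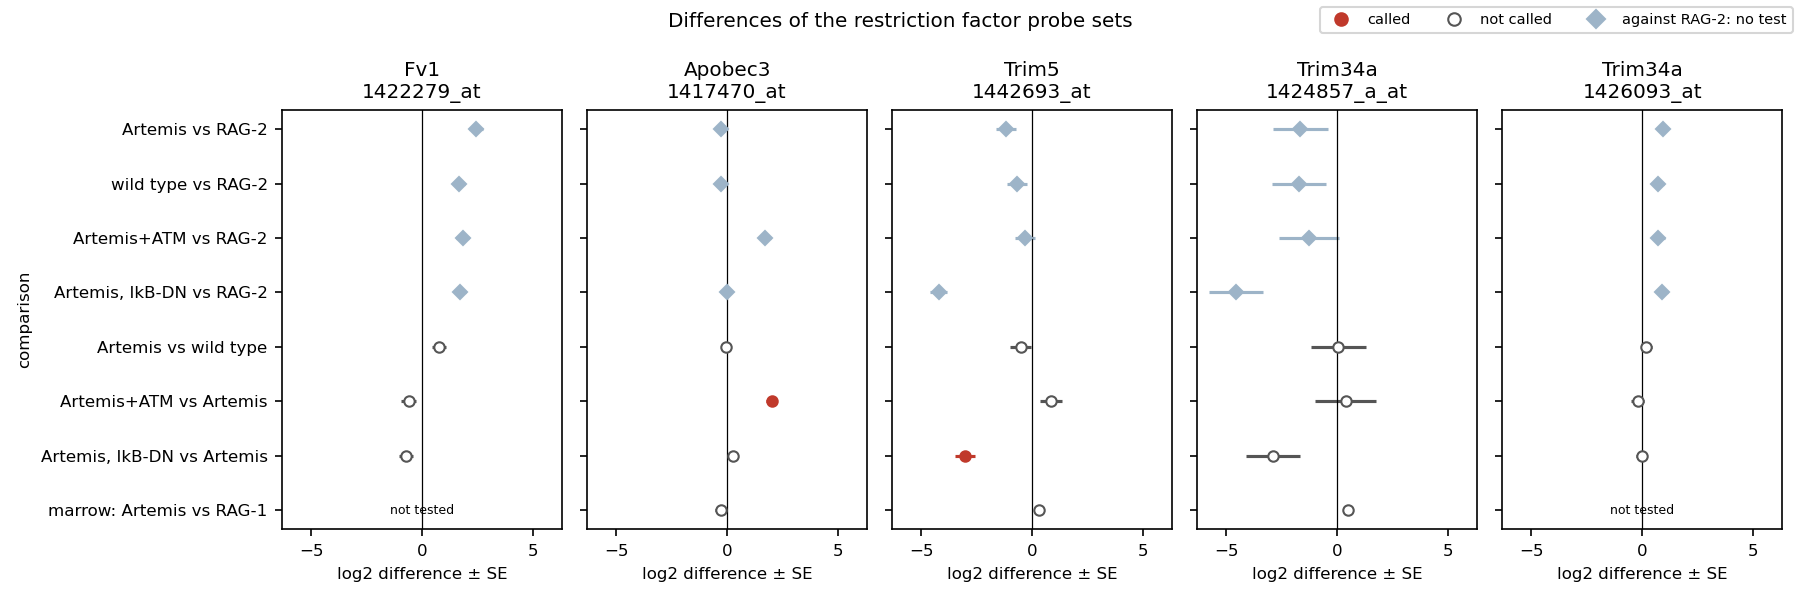
Log2 difference with its standard error (SE) of the 5 member probe sets in 8 comparisons, filled red where called at an adjusted p below 0.05; the 4 uppermost comparisons share the RAG-2-deficient lines and are shown as a description with no test (diamonds). The Apobec3 difference of 2.01 in Artemis- and ATM-deficient against Artemis-deficient lines and the Trim5 difference of -3.03 in IkB-DN against Artemis-deficient lines are the red points.

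Trim5 (probe set 1442693_at) was near the floor of the array in the IkB-DN lines. Its signal there was 3.5, 2.6 and 4.2. The Artemis- and ATM-deficient arrays read 142.8, 101.0, 143.9 and 149.8, the Artemis-deficient lines 139.0 and 34.7, with an empty cell for replicate 3, and the wild type lines 74.1 and 145.9, again with an empty cell for replicate 3. The RAG-2-deficient lines read 162.2, 186.4 and 158.9, above every other line with a value. All IkB-DN values were below the array median and below every other value for the gene.

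From low to high, mean Trim5 levels on the log2(signal + 6) scale were 3.23 ± 0.13 (SD, n = 3) in IkB-DN, 6.26 ± 1.30 (n = 2) in Artemis-deficient, 6.79 ± 0.65 (n = 2) in wild type, 7.12 ± 0.20 (n = 2) in Artemis- and ATM-deficient and 7.45 ± 0.12 (n = 3) in RAG-2-deficient lines. Each step after the first was smaller than the larger SD of its pair, except the last, whose ranges of 101.0 to 149.8 and 158.9 to 186.4 did not overlap. Against the RAG-2-deficient lines the differences were -1.19 ± 0.45 for Artemis-deficient, -0.66 ± 0.45 for wild type, -0.33 ± 0.45 for Artemis- and ATM-deficient and -4.22 ± 0.40 for IkB-DN lines.

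IkB-DN lines were set against Artemis-deficient lines, and there Trim5 was 3.03 ± 0.45 lower on the log2 scale (difference -3.03, n = 3 and 2, limma, adjusted p = 0.011), an 8.2-fold difference. It was the single member probe set called of 5 tested, with 2.06% of all probe sets called. This call rests on leaving out Artemis-deficient replicate 3, whose cell is empty. That line is also the Artemis-deficient line that correlated best with the IkB-DN samples over all probe sets and was low in Trim34a and Trim12a, so what IkB-DN adds and how the lines differ cannot be told apart here. With empty cells at a signal of 0 the difference was -1.80 ± 1.13 (adjusted p = 0.42), and with the IkB-DN samples averaged to 1 it was -3.03 ± 0.67 (adjusted p = 0.524). Without IkB-DN replicate 1 or 2 the adjusted p was 0.0501 and 0.0679.

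Trim34a was read by 2 probe sets that disagreed. On 1424857_a_at, the brighter one, the IkB-DN lines read 15.8, 18.4 and 13.1. The Artemis- and ATM-deficient arrays read 217.8, 229.4, 187.5 and 184.8, the Artemis-deficient lines 380.9, 486.7 and 16.1, the wild type lines 498.9, 395.0 and 12.3, and the RAG-2-deficient lines 534.3, 534.5 and 442.4. Artemis-deficient replicate 3 and wild type replicate 3 stood with the IkB-DN samples and apart from their own groups, and there was no value between 18.4 and 184.8. The same lines were those with an empty Trim5 cell.

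The group means of this probe set carry that split. From low to high they were 4.44 ± 0.18 (SD, n = 3) for IkB-DN, 7.28 ± 2.67 (n = 3) for wild type, 7.33 ± 2.49 (n = 3) for Artemis-deficient, 7.71 ± 0.18 (n = 2) for Artemis- and ATM-deficient and 8.99 ± 0.16 (n = 3) for RAG-2-deficient lines. The Artemis- and ATM-deficient, Artemis-deficient and wild type means could not be separated beyond that spread. Differences from the RAG-2-deficient lines were -1.65 ± 1.22 for Artemis-deficient, -1.71 ± 1.22 for wild type, -1.27 ± 1.37 for Artemis- and ATM-deficient and -4.55 ± 1.22 for IkB-DN lines. Without replicate 3 of each group the Artemis-deficient and wild type differences were -0.22 and -0.18.

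IkB-DN against Artemis-deficient lines gave -2.90 ± 1.22 for 1424857_a_at (n = 3 and 3, adjusted p = 0.225). Without Artemis-deficient replicate 3 the difference was -4.33 ± 1.05 (adjusted p = 0.0395), which made 2 member probe sets called. Artemis-deficient against wild type lines gave 0.06 ± 1.22 (adjusted p = 0.99) and Artemis- and ATM-deficient against Artemis-deficient lines 0.38 ± 1.37 (adjusted p = 0.969).

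The other Trim34a probe set, 1426093_at, showed no such split. It read 64.9, 43.2, 54.6 and 59.8 on the Artemis- and ATM-deficient arrays, 62.3, 68.5 and 59.4 in IkB-DN lines, 60.2, 40.1 and 107.3 in Artemis-deficient lines, 56.4, 47.3 and 63.5 in wild type lines and 33.9, 29.9 and 29.2 in RAG-2-deficient lines. The RAG-2-deficient lines were the lowest, and the other groups overlapped. Differences from the RAG-2-deficient lines were 0.93 ± 0.26 for Artemis-deficient, 0.73 ± 0.26 for wild type, 0.73 ± 0.29 for Artemis- and ATM-deficient and 0.91 ± 0.26 for IkB-DN lines, opposite in sign to those of 1424857_a_at in all 4. Over 14 line samples the probe sets correlated at -0.727. The tested differences among the break-competent lines lay between -0.20 and 0.19, none called.

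Both probe sets that name Trim34a and Trim34b followed 1424857_a_at, with correlations of 0.977 for 1421550_a_at and 0.948 for 1426092_a_at over 14 line samples. The first read 23.77 to 46.04 in IkB-DN lines and 147.6 to 172.3 in RAG-2-deficient lines. So 3 probe sets that can read Trim34a agreed on which samples were low, and 1 did not. Which transcript each one reads, and whether the lines differ in strain or sequence at this gene, was not tested.

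Some neighbours of Trim34a and Trim5 within the Trim cluster on chromosome 7 divided the same samples. Trim12a (1437432_a_at), the next TRIM gene along, read 1.081 in IkB-DN replicate 1 and was empty in the other IkB-DN samples. It read 2.513 in Artemis-deficient replicate 3 and 169.2 and 168.7 in the other Artemis-deficient lines. The Artemis- and ATM-deficient arrays read 125.2 to 155.4, the wild type lines 162.4, 152.0 and 2.382, and the RAG-2-deficient lines 326.6 to 367.5. Trim30d (1435665_at) was empty in Artemis-deficient replicate 3, wild type replicate 3 and all 3 IkB-DN samples, and read 56.83 to 203.9 in the other lines.

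The split recurred on some further probe sets of the cluster and not on others. A second Trim12a probe set, 1420648_at, read 21.73, 33.18 and 22.33 in IkB-DN lines, 35.32 to 49.49 on the Artemis- and ATM-deficient arrays, 40.19, 52.28 and 21.1 in Artemis-deficient lines, 46.48, 51.7 and 23.96 in wild type lines and 56.2 to 67.27 in RAG-2-deficient lines. Trim30a, on 1417961_a_at, read 315.6, 266.1 and 279.9 in IkB-DN lines, 376.3 to 548.6 on the Artemis- and ATM-deficient arrays, 388.2, 476.6 and 281.6 in Artemis-deficient lines, 449.0, 627.1 and 143.2 in wild type lines and 612.4 to 907.7 in RAG-2-deficient lines. On both, the 3 IkB-DN samples, Artemis-deficient replicate 3 and wild type replicate 3 were the 5 lowest, as they were on a second Trim30d probe set, 1438716_at (3.306 to 20.31, with 32.22 or more in the other lines).

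Trim12c, on 1443858_at, read 322.9 to 353.9 in IkB-DN lines and 303.8 to 473.4 over all lines, with Artemis-deficient replicate 3 the highest. Its other probe set, 1445271_at, was lowest in Artemis-deficient replicate 3 (47.85) and wild type replicate 3 (65.48). The IkB-DN lines read 78.32 to 120.6 on it, overlapping the other Artemis-deficient lines (117.1 and 143.9). The second Trim30a probe set, 1451860_a_at, ran from 241.2 to 483.2 with overlap between groups. Probe sets of Trim12a, Trim12c and Trim30a therefore disagreed on the size of the differences, as those of Trim34a did.

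**Figure D3:**
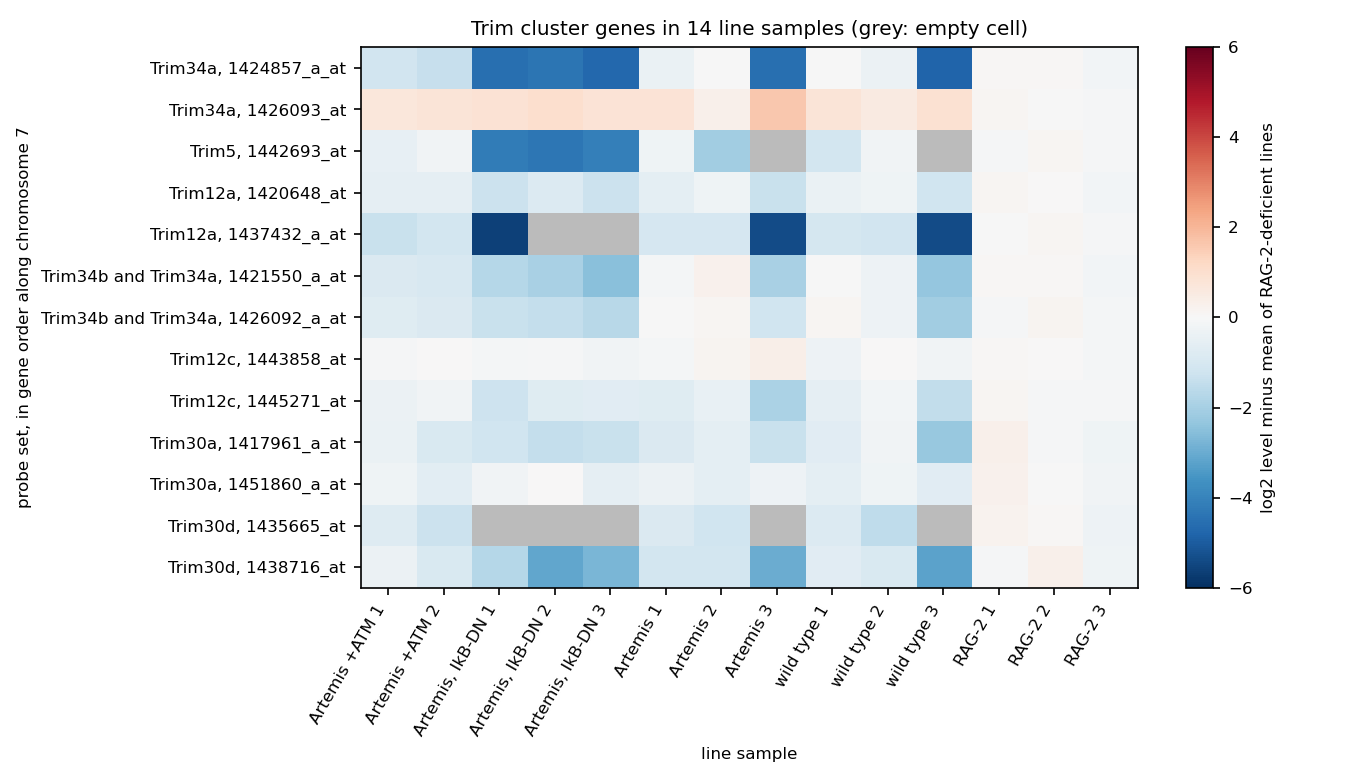
Log2 level of Trim cluster probe sets in each of 14 line samples, relative to the mean of the RAG-2-deficient lines, with genes in their order on chromosome 7 and empty cells in grey. Artemis-deficient replicate 3, the 3 IkB-DN samples and wild type replicate 3 are blue or grey for Trim34a 1424857_a_at, Trim5, Trim12a 1437432_a_at and Trim30d 1435665_at, and pale for Trim12c 1443858_at.

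Over the line samples the genes whose level ran most like Trim34a 1424857_a_at were Trim12a (r = 0.979, n = 12), Hdhd2 (r = 0.925, n = 14), 1500015A07Rik (r = 0.923, n = 14), Sfxn1 (r = 0.912, n = 14) and Trim5 itself (r = 0.899, n = 12). Those most like Trim5 were Lars2 (r = 0.958), the mitochondrial leucyl-tRNA synthetase, Prmt3 (r = 0.951), H2aw (r = 0.949), Gng2 (r = 0.944) and Scoc (r = 0.941), each with n = 12. Neither empty Trim5 sample enters those values. Those most like Fv1 were Bloc1s2 (r = 0.955), Vps52 (r = 0.898), Akr1c13 (r = 0.878), Sdhb (r = 0.871) and Tgs1 (r = 0.87), each with n = 13. Zfp982, a zinc finger gene near Fv1 on chromosome 4, read 60.55 to 69.84 in Artemis-deficient lines and 2.46 to 4.839 in RAG-2-deficient lines, but also 5.168 to 11.6 in wild type lines, in which Fv1 was not low.

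Artemis-deficient against wild type lines, which sets open breaks against breaks that can be joined, had 0 of 5 member probe sets called by limma, with 1 at an unadjusted p below 0.05 (Fv1) and 0.504% of all probe sets called. That count was 0 under every alternative run.

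Artemis-deficient marrow pre-B cells carry RAG breaks without v-abl or STI571, and RAG-1-deficient marrow, in which none are made, is their control. In this comparison 3 member probe sets were tested and limma called 0, with 1 at an unadjusted p below 0.05 and 2.60% of all probe sets called. Trim34a 1424857_a_at read 669.1 and 661.5 in Artemis-deficient marrow, against 431.7 and 499.5 in RAG-1-deficient marrow, a difference of 0.51 ± 0.17 (n = 2 and 2, adjusted p = 0.188). Trim5 read 143.0 and 188.2 in Artemis-deficient marrow and 133.5 and 124.8 in RAG-1-deficient marrow, 0.32 ± 0.23 apart (adjusted p = 0.545). Both were higher in each Artemis-deficient sample than in either RAG-1-deficient sample. How many of all probe sets separate 2 and 2 samples in this way was not counted, so nothing is read from it. Trim34a 1426093_at read 20.6 and 18.0 in Artemis-deficient marrow and 11.4 and 10.5 in RAG-1-deficient marrow, all below the array median, and without the filter on low values it gave 0.47 ± 0.34 (adjusted p = 0.663). None of the 4 marrow samples had the low signal of the 5 line samples on Trim34a 1424857_a_at, Trim5 or Trim12a 1437432_a_at. On the other Trim12a probe set, 1420648_at, the marrow read 24.6 to 27.22, within the 21.1 to 33.18 of those line samples. On 1426092_a_at, which names Trim34a and Trim34b, the marrow read 25.05 to 49.8 and those line samples 12.96 to 28.95, with overlap.

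Related genes were counted from lists, with 1 probe set per gene. Of 11 TRIM relatives tested in the marrow, 1 was called: Trim30a, a TRIM protein known to dampen Toll-like receptor signalling, was 1.13 ± 0.22 higher in Artemis-deficient marrow (adjusted p = 0.048), with signals of 3224 and 4807 against 1637 and 1976 in RAG-1-deficient marrow. The second Trim30a probe set gave 1.06 ± 0.22 (adjusted p = 0.0582). Trim30d missed the threshold at 1.30 ± 0.28 (adjusted p = 0.058). Of 19 other antiretroviral factors, 1 was called: Bst2 (tetherin), which holds budding virions at the cell surface, was 2.51 ± 0.39 higher (adjusted p = 0.0287). The interferon response list had 1 of 22 called, Mx1, a dynamin-like antiviral GTPase, at 1.71 ± 0.25 (adjusted p = 0.0266); 9 of its genes were at an unadjusted p below 0.05 and its median difference was 0.56, where the median over all 9932 genes tested was -0.001. Of 12 nucleic acid sensing genes Tlr7, the endosomal receptor for single-stranded RNA, was called at 2.18 ± 0.31 (adjusted p = 0.0256), while its other probe sets gave 1.55 ± 0.35 (adjusted p = 0.0692) and 1.31 ± 0.38 (adjusted p = 0.133). Of 19 provirus silencing genes and 4 receptors of murine leukaemia viruses, 0 were called, with 3 and 1 at an unadjusted p below 0.05. Over all genes 2.68% were called. These marrow calls depend on the fit and on single samples: Trim30a, Bst2, Mx1 and Tlr7 were all not called with eBayes without trend or without RAG-1-deficient replicate 1, when the probe sets called fell to 15 and 0, against 508 in the fit reported. Without RAG-1-deficient replicate 2, when 80 were called, Bst2 alone of these was called; without an Artemis-deficient sample 1174 or 1246 were called.

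Markers of other cells also differed between the marrow groups, and not all in 1 direction. Of 5 dendritic cell markers on the array, 3 were tested and all 3 were called higher in Artemis-deficient marrow: Siglech by 2.58 ± 0.38, Flt3 by 1.48 ± 0.20 and Itgax by 1.04 ± 0.20. Over all genes 2.68% were called. The summed signal of all 5 was 2876 to 4045 in Artemis-deficient marrow and 746.6 to 1145 in RAG-1-deficient marrow. The 9 B lineage markers summed to 11800 to 16690 in Artemis-deficient marrow, against 26210 to 30510 in RAG-1-deficient marrow, and T and NK cell markers to 3128 to 3894, against 1700 to 2277. Erythroid markers were lower in Artemis-deficient marrow, at 664.9 to 1048 against 1419 to 1449 in RAG-1-deficient marrow. The part of these cells in the member and list values was not tested.

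In the lines few genes of the same lists were called in the comparisons that leave out the RAG-2-deficient lines. In Artemis- and ATM-deficient against Artemis-deficient lines 1 gene of all these lists was called, Slc20a1, the phosphate transporter whose human counterpart is the receptor of gibbon ape leukaemia virus: it was lower (difference -1.497 ± 0.234, adjusted p = 0.0235), with 0.335% of genes called. Its other probe set gave -1.57 ± 0.31 (adjusted p = 0.072). The lists of 11 TRIM relatives, 19 antiretroviral factors, 19 silencing genes, 12 interferon response genes and 10 sensing genes had 0 called in that comparison and 1, 0, 2, 3 and 2 at an unadjusted p below 0.05. The interferon response genes had a median difference of 0.09 there, with 12 tested of 23 on the array. The 3 at an unadjusted p below 0.05 were Ifit2 (1.722 ± 0.625) and Psmb8 (0.61 ± 0.215), which were higher, and Irf1 (-0.696 ± 0.232), which was lower. The part of an interferon response in the Apobec3 difference was not tested.

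IkB-DN against Artemis-deficient lines had 1 antiretroviral factor called of 19, Ifitm3, a membrane protein that blocks virus fusion, higher by 2.61 ± 0.45 (adjusted p = 0.0149), and 1 virus receptor of 4, Slc20a1, lower by 1.67 ± 0.21 (difference -1.67, adjusted p = 0.00399), with 2.41% of genes called. The other Slc20a1 probe set gave -2.02 ± 0.28 (adjusted p = 0.00635). These values treat the IkB-DN samples as separate lines, and the labels leave it unclear whether they were derived independently. With the IkB-DN samples averaged to 1, which leaves 1 sample in that group, neither Ifitm3 nor Slc20a1 was called. What IkB-DN adds and how the lines differ cannot be told apart here. The 10 TRIM relatives, 19 silencing, 12 interferon response and 10 sensing genes had 0 called and 1, 3, 4 and 1 at an unadjusted p below 0.05. In the same comparison Lyz2, a lysozyme of myeloid cells, was 3.40 ± 0.44 higher. The summed neutrophil and monocyte markers were 636.9 to 770.2 in IkB-DN lines and 138.5 to 352.8 in Artemis-deficient lines, and their part in these values was not tested. Artemis-deficient against wild type lines had Trim11 (1.01 ± 0.17, adjusted p = 0.024) called among TRIM relatives and Xaf1, an interferon-inducible regulator of apoptosis, called among interferon response genes (1.95 ± 0.36, adjusted p = 0.0386), with 0.579% of genes called. A second Xaf1 probe set, 1443698_at, went the other way at -1.32 ± 0.44 (adjusted p = 0.227). The remaining lists had 0 called there, with 3 of 19 antiretroviral, 2 of 19 silencing, 4 of 4 receptor and 2 of 10 sensing genes at an unadjusted p below 0.05.

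**Figure D4:**
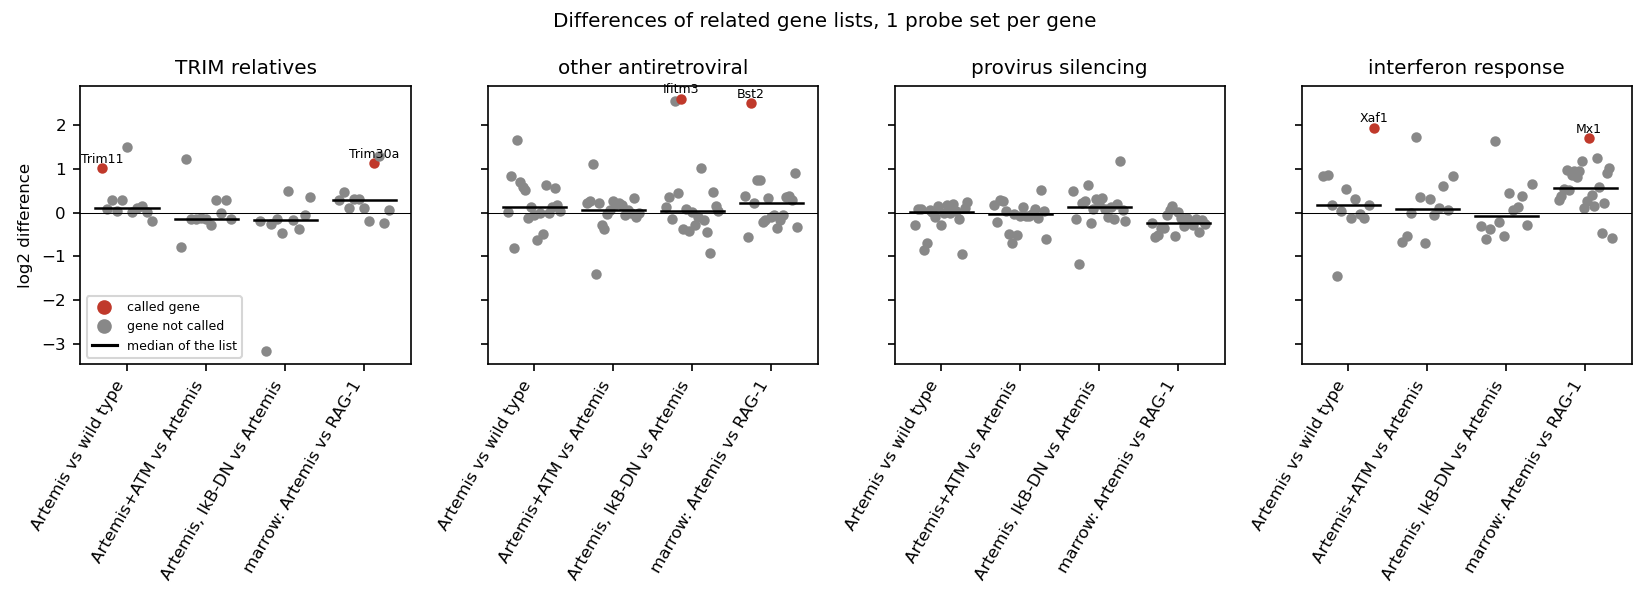
Log2 difference of each tested gene of 4 lists (points, red where called) and the median of the list (bar) in the 4 comparisons that do not involve the RAG-2-deficient lines. The interferon response list has its highest median, 0.56, in Artemis-deficient against RAG-1-deficient marrow, where Mx1, Bst2 and Trim30a are called; Ifitm3 is called in IkB-DN against Artemis-deficient lines and Trim11 and Xaf1 in Artemis-deficient against wild type lines.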

How the data were processed

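Total RNA of 20 samples was hybridised to Mouse 430 v2 arrays and read with GeneChip Operating Software 1.2.0.037, per the labels. How the background, the summary and the scaling were done is not given in the sources used. The authors' deposited values were taken as log10 signals, a base inferred from their range, and returned to signals; 14.7% of cells are empty and stayed empty. Probe sets at or above the array's median signal in 2 samples or more were kept (21843 probe sets in lines, 19520 in marrow). Levels are log2(signal + 6) in lines and log2(signal + 11) in marrow, the pseudocount being the 25th percentile, so differences of dim probe sets are understated. Technical arrays of a line were averaged. The 14 line samples shared 1 limma 3.58.1 fit (lmFit and eBayes with trend, R 4.3.3; 9 residual degrees of freedom) and the 4 marrow samples another (2). P values (two-sided) were adjusted over all tested probe sets with the Benjamini-Hochberg method, and a call is an adjusted p below 0.05; differences from the RAG-2-deficient lines are given without a test; the fit was checked on simulated data. The number of samples limits the precision, and p-values measure only the spread between these samples.

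The members, gene lists and tests were chosen with earlier results of these data known. Probe sets were named from the platform annotation (34294 name 1 gene, 916 several, 8990 none), and a list gene is represented by its probe set with the highest mean level. Called list genes with the smallest p are named, up to 4 per list; Cbx7, Zfp982 and Lyz2 were singled out after their values were seen. The alternatives were other pseudocounts, other filters, quantile normalization, empty cells at 0, eBayes without trend, only the compared groups in the fit, 1 array per ATM-deficient line, IkB-DN samples averaged, and leaving out each replicate.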

Additional observations from a re-analysis of the deposited data

Results flagged for a closer look

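Trim5 (1442693_at) values lay in opposite directions in the lines and in the marrow. Both Artemis-deficient lines with a value were below every RAG-2-deficient line (difference -1.186, with replicate 3 empty), whereas both Artemis-deficient marrow samples were above both RAG-1-deficient samples (difference 0.322). The marrow difference was not called (limma, adjusted p = 0.545), the difference in the lines is a description, and the difference between them was not tested. The share of all probe sets that separate between groups this small was not counted.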

How the results depend on the processing

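Of the alternatives for single member differences in the tested comparisons, 238 kept their direction and their side of the threshold, 4 lost a call, 1 gained one and 16 turned sign. Differences from the RAG-2-deficient lines carry no test: 284 moved by less than the larger SD of the groups and 19 by more, and call counts are not given for them. Counts of member probe sets called were within 1.5 times the reported count in 52 alternatives and further off in 6, all in IkB-DN against Artemis-deficient lines. There the count was 0 with every sample required to reach its array median, because Trim5 is then not tested, 0 with empty cells at 0, 0 with IkB-DN averaged to 1 sample, and 0 to 2 when 1 sample was left out. For the list genes, alternatives chosen after seeing the data kept 80 calls and lost 38, with no change of sign. Ifitm3 was called in 9 of 15, Trim11 in 10 of 16, Xaf1 in 8 of 15, and Slc20a1 in 10 of 15 (Artemis- and ATM-deficient) and 15 of 16 (IkB-DN). The only exception for Slc20a1 in the IkB-DN comparison was IkB-DN samples averaged to 1, under which Ifitm3 was not called either. In the marrow Bst2 was called in 9 of 11, Mx1 in 5 of 8, Tlr7 in 8 of 11 and Trim30a in 6 of 11. The cause of these shifts was not tested where the alternative's own construction does not show it.

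No called difference turned sign. With the empty Fv1 cell at 0, Fv1 was -0.336 in Artemis-deficient against wild type, 0.50 in Artemis- and ATM-deficient against Artemis-deficient and 0.384 in IkB-DN against Artemis-deficient lines. Leaving out 1 sample moved Apobec3 between -0.282 and 0.255 (Artemis-deficient against wild type) and -0.693 and 0.151 (marrow). Trim34a 1424857_a_at moved between -1.06 and 1.18 (Artemis- and ATM-deficient against Artemis-deficient) and -1.48 and 1.5 (Artemis-deficient against wild type). Trim34a 1426093_at moved between -0.504 and 0.144, -0.152 and 0.496, and -0.321 and 0.327 in Artemis- and ATM-deficient against Artemis-deficient, Artemis-deficient against wild type and IkB-DN against Artemis-deficient lines. Trim5 moved between -0.0623 and 1.77 (Artemis- and ATM-deficient against Artemis-deficient) and -1.44 and 0.394 (Artemis-deficient against wild type). Where leaving out a sample left 1 in a group, that sample was assumed to vary like the other groups. No paired analysis was possible because the replicate numbers follow accession order and pair no samples. Signals near or below the array median, as for Fv1, limit how firmly their differences can be read.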
